A study of Rattus norvegicus with 18 samples.

Results

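The genes described here are 9 genes of the Nrf2 oxidative stress response in rat liver. They are the transcription factor gene Nfe2l2, the gene of its repressor Keap1, and the 7 target genes Nqo1, Hmox1, Gclc, Gclm, Txnrd1, Srxn1 and Akr7a3. They were taken by gene symbol from tables of 32623 genes. All 9 were found, and all 9 passed the filter on low counts that left 12904 genes for testing. They were chosen by name, with no measured value in the rule, but earlier results of these data were known when they were chosen.

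Nrf2 is held in the cytoplasm by Keap1, which passes it to a ubiquitin ligase for degradation. Electrophiles and oxidants modify cysteines of Keap1, and Nrf2 then reaches the nucleus, pairs with a small Maf protein and binds antioxidant response elements. The targets make glutathione, regenerate thioredoxin and peroxiredoxins, break down heme, and reduce quinones and aldehydes. Because this control acts largely on the protein, the transcript of Nfe2l2 is a poor measure of Nrf2 activity, and target transcripts are commonly read in its place. In liver the pathway is known for protecting hepatocytes from reactive drug metabolites and from lipid peroxidation.

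Liver RNA was sequenced from male Wistar rats of the BarNa model, with 6 control, 6 NASH and 6 NASH-CH rats and 1 library per rat. Control rats received standard chow and normal water for 12 weeks. NASH rats had 6 weeks of inhaled CCl4, a hepatotoxin that forms free radicals in hepatocytes, and of phenobarbital, given in the water. A further 4 weeks on a diet high in fat and cholesterol (HFCD) followed, without either agent. NASH-CH rats, the group with cirrhosis, had both agents throughout 24 weeks, and the HFCD was added for the final 16. Both agents therefore continued to the end of the protocol in NASH-CH rats only, so length of treatment, cirrhosis and recent exposure cannot be told apart between the models. The protocols also ended at another time than that of the controls, and the ages of the rats are not given in the sources used here. The study measured oxidative damage in these livers by other assays. It reported more malondialdehyde, its measure of lipid peroxidation, and more nitrotyrosinated protein in both models than in controls. The comparisons below ask how the transcripts of the antioxidant response differed between the groups.

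Totals ran from 19498534 to 29491947 expected counts in control and NASH rats and from 44680344 to 60117822 in NASH-CH rats, so depth and group cannot be told apart for NASH-CH. Hepatocyte markers such as Alb were abundant in every rat, with a summed level of 90171 to 191671 CPM over 10 genes. Levels are given as CPM, counts relative to the library total scaled by TMM factors, which are not corrected for gene length and are compared only within a gene. All samples are whole liver, so a smaller number of cells of a type and less RNA per cell cannot be told apart.

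Sequence letters that resemble an antioxidant response element are shown for the 3 targets that hold them near a start site. RefSeq promoters of the GRCr8 assembly, from 250 bases before to 50 bases after each start, were matched by symbol for 8 of the 9 genes. Hmox1 was not matched. The patterns TGACNNNGC and TGAGNNNGC were searched on both strands, and either was held by 4 of the 8 genes (Nfe2l2, Gclm, Txnrd1 and Srxn1). Of 33469 rat promoters of the same length, 12.1% held the first pattern, 17.2% the second and 27.1% either, so these letters are common. These shares count promoters rather than genes, and the 8 genes had 9 promoters, with a match at 1 of the 2 of Txnrd1. Elements further from a start were not searched, so a gene without a match here may hold one elsewhere. The windows below run in the direction of the gene, with the match in capitals.
Gclm, chr2:213031953-213031982, plus strand, match at -172 to -164: tgcggtttctGCTTAGTCAttgtcttccag
Txnrd1, chr7:22755963-22755992, minus strand, match at -78 to -70: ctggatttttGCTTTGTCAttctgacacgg
Srxn1, chr3:161064684-161064713, plus strand, match at -118 to -110: cccactgagaGCCGACTCAtcctcgctggg
Srxn1, chr3:161064797-161064826, plus strand, match at -5 to 4: aaactcacccTGAGTCAGCgacccgacgcg
Positions count from 1 at the first transcribed base and from -1 just before it. In the first 3 windows the pattern lies on the opposite strand, so its reverse complement is in capitals. Srxn1 held 3 matches, the only gene of the 8 with more than 1, and the Txnrd1 match lies at the second of 2 start sites. The match in Nfe2l2 lies after its start. These letters describe the windows, and factor binding was not measured.

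None of the 9 genes passed an adjusted p of 0.05 in any of the 3 comparisons (limma-voom moderated test, Benjamini-Hochberg adjustment over 12904 genes). Among all tested genes, 3.12% passed between NASH and control rats, 17.0% between NASH-CH and control rats, and 4.20% between NASH-CH and NASH rats. Higher and lower genes made up 1.58% and 1.54% in the first comparison, 8.38% and 8.60% in the second, and 1.81% and 2.39% in the third. At an unadjusted p under 0.05, limma-voom gave 5 of the 9 genes in NASH against control, all 5 higher in NASH (Hmox1, Gclc, Txnrd1, Srxn1 and Akr7a3), where 21.5% of all genes passed. It gave 1 gene, Keap1, lower in NASH-CH against control (31.7% of all genes), and 1 gene, Gclm, lower in NASH-CH against NASH (17.5% of all genes). At the adjusted threshold edgeR's quasi-likelihood test gave 0 genes in each comparison, and DESeq2 gave 2, 1 and 1. The DESeq2 calls were Srxn1 (adjusted p = 0.0260) and Hmox1 (adjusted p = 0.0344) in NASH, Keap1 in NASH-CH against control (adjusted p = 0.0335) and Gclm in NASH-CH against NASH (adjusted p = 0.0194).

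The log2 fold change was above 0 for 7 of the 9 genes in NASH and for 7 in NASH-CH, relative to the shared controls. Among all tested genes these shares were 51% and 51.5%. The median log2 fold change of the 9 genes was 0.35 in NASH and 0.28 in NASH-CH, beside 0.0072 and 0.013 over all genes. Between the models, 1 of the 9 genes (Nqo1) was above 0 in NASH-CH against NASH, and the median was -0.26, beside 0.0068 over all genes. The groups overlapped for all 9 genes in all 3 comparisons. Over all tested genes, every NASH rat lay above every control rat in 1.77% and below in 1.39%. These shares were 3.64% and 3.46% for NASH-CH against control and 1.36% and 2.10% for NASH-CH against NASH.

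**Figure D1:**
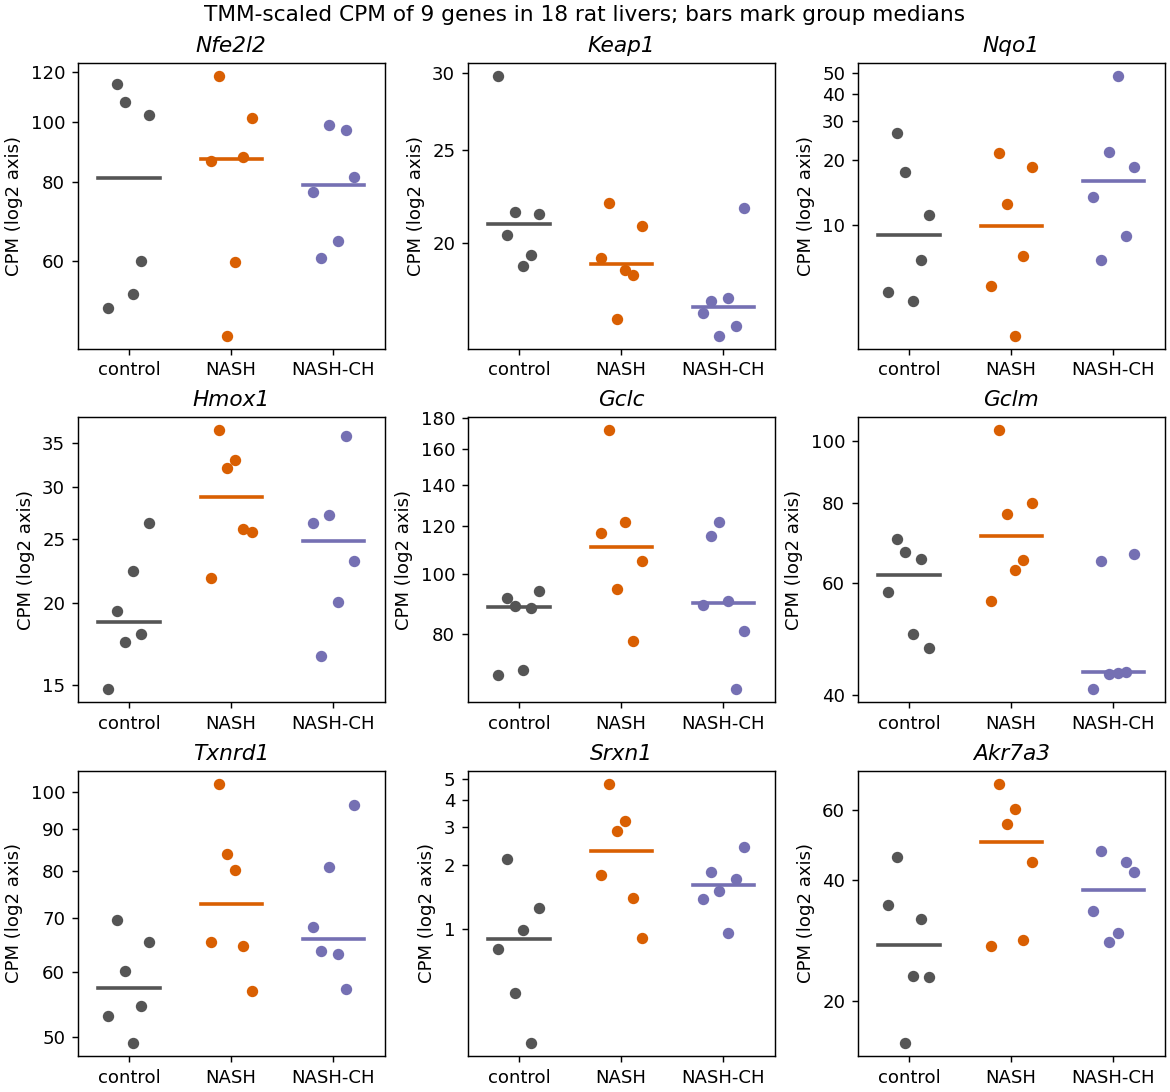
Level of each of the 9 genes in TMM-scaled CPM (y axis, log2 scale with its own range in each panel) in the 6 control, 6 NASH and 6 NASH-CH rats (x axis). Each point is 1 rat, in the order of its number, and each bar is the group median. The groups overlap in every panel, and the median of NASH is the highest of the 3 groups for Nfe2l2, Hmox1, Gclc, Gclm, Txnrd1, Srxn1 and Akr7a3.

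Nfe2l2 (ENSRNOG00000001548), the gene of Nrf2 itself, stood at almost the same mean in the 3 groups. It ran from 50.4 to 115 CPM in control rats (median 81.2), from 45.6 to 118 in NASH rats (median 87.2) and from 60.6 to 98.8 in NASH-CH rats (median 79.3). Each group thus covered most of the range of the others. Fitted log2 fold changes were 0.058 in NASH (95% confidence interval -0.46 to 0.57, adjusted p = 0.920) and 0.037 in NASH-CH (95% confidence interval -0.50 to 0.58, adjusted p = 0.935). The control rats fell into a lower set (rats 1, 4 and 5, 50.4 to 59.9 CPM) and a higher set (rats 2, 3 and 6, 102 to 115 CPM). Their Nqo1 levels had the same order of sets, 4.46 to 6.89 CPM in the first and 11.1 to 26.6 CPM in the second.

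Keap1 (ENSRNOG00000020878), the gene of the repressor, had its highest median in control rats and its lowest in NASH-CH rats. It ran from 18.9 to 29.8 CPM in control rats (median 20.9), from 16.7 to 22.0 in NASH rats (median 19) and from 16 to 21.8 in NASH-CH rats (median 17.2). Of the 6 NASH-CH rats, 5 lay below every control rat, and NASH-CH rat 6 lay among the controls. Between NASH-CH and control rats the difference was -0.29 on the log2 scale (SE 0.11, adjusted p = 0.0659), an inverse fold of 1.23. Without NASH-CH rat 6 it was -0.35 and passed (adjusted p = 0.0300). With all libraries thinned to the smallest total it also passed (adjusted p = 0.0465), and with scaling by library size only it shrank to -0.038 (adjusted p = 0.843). In NASH the log2 fold change was -0.16 (SE 0.11, adjusted p = 0.400), with 3 of 6 rats below every control rat, and it turned to 0.060 with scaling by library size only.

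Nqo1 (ENSRNOG00000012772) encodes NAD(P)H quinone dehydrogenase, which reduces quinones by 2 electrons in a single step and is a widely used readout of Nrf2. It had the largest coefficient of variation of the 9 genes in each group, at 72.8% (control), 65.6% (NASH) and 77.2% (NASH-CH). It ran from 4.46 to 26.6 CPM in control rats (median 9.0), from 3.10 to 21.4 in NASH rats (median 9.90) and from 6.92 to 48.5 in NASH-CH rats (median 16). The highest rat was 5.95, 6.90 and 7.01 times the lowest in the 3 groups. Its log2 fold change was -0.082 in NASH (95% confidence interval -1.27 to 1.11, adjusted p = 0.951), and its sign turned with library size only (0.17). In NASH-CH it was 0.70 (95% confidence interval -0.43 to 1.83, adjusted p = 0.393), and 0.38 without NASH-CH rat 4, which stood at 48.5 CPM. A change of more than 2-fold in either direction lies within the NASH interval, which runs from 0.414 to 2.16 as a fold.

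Hmox1 (ENSRNOG00000014117) encodes heme oxygenase 1, which opens the heme ring and releases iron, carbon monoxide and biliverdin. Its difference in NASH was the nearest of the 9 genes to the threshold in that comparison. It ran from 14.8 to 26.4 CPM in control rats (median 18.7), from 21.8 to 36.7 in NASH rats (median 29.0) and from 16.6 to 35.9 in NASH-CH rats (median 24.8). All 6 NASH rats lay above the control mean of 19.7 CPM, and 3 lay above every control rat. NASH rats differed from controls by 0.56 on the log2 scale (SE 0.17, adjusted p = 0.0815), a 1.47-fold difference with a 95% confidence interval of 1.14 to 1.90.

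Of 18 fits with 1 rat removed from each, the Hmox1 difference in NASH passed in 2, without control rat 6 (0.65, adjusted p = 0.0341) and without NASH-CH rat 5 (adjusted p = 0.0472). In NASH-CH the log2 fold change was 0.30 (SE 0.18, adjusted p = 0.259), and 0.19 without NASH-CH rat 5. Macrophages are a known site of heme oxygenase 1 in liver. The summed level of 12 macrophage markers was 440 to 712 CPM in control rats, 336 to 459 in NASH rats and 281 to 431 in NASH-CH rats, and of 11 tested markers 0 were higher and 1 (Marco) fell in NASH, where edgeR gave 2 lower and DESeq2 3. In NASH-CH, where 17.0% of all tested genes passed, 7 of the 11 fell, among them Cd5l, Marco, Csf1r and Cd163. The marker Cd68 was not among them, with a mean of 11.6 CPM in control and 12.7 CPM in NASH-CH rats. By tissue staining, the study reported more macrophages positive for CD68 and for CD163 in NASH-CH than in control livers. With library size only 2 of the 11 passed as lower in NASH-CH, and 3 to 8 with 1 rat left out, the 3 without control rat 3. The part of macrophages in the Hmox1 values was not tested.

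Gclc (ENSRNOG00000006302) encodes the catalytic subunit of glutamate-cysteine ligase, the rate-limiting enzyme of glutathione synthesis. It ran from 68.4 to 94.0 CPM in control rats (median 88.3), from 77.9 to 172 in NASH rats (median 111) and from 64.9 to 122 in NASH-CH rats (median 89.8). Of the 6 NASH rats, 5 lay above every control rat, more than for any other of the 9 genes in NASH, and NASH rat 5 lay among the controls. In NASH the fold change was 0.44 on the log2 scale (SE 0.17, adjusted p = 0.141), which is 1.35-fold, and 0.31 without NASH rat 2. It was 0.16 in NASH-CH (SE 0.17, adjusted p = 0.555), 0.082 without NASH-CH rat 3, 0.25 without NASH-CH rat 5 and 0.41 with library size only.

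Gclm (ENSRNOG00000013409) encodes the modifier subunit of the same ligase, which raises its affinity for glutamate. It ran from 47.3 to 70.3 CPM in control rats (median 61.7), from 56.1 to 104 in NASH rats (median 71.0) and from 40.8 to 66.7 in NASH-CH rats (median 43.4). In NASH-CH, 4 of the 6 rats lay between 40.8 and 43.4 CPM, below every control and every NASH rat, and rats 2 and 6 lay at 64.9 and 66.7 CPM.

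Gclm differed between NASH-CH and NASH rats by -0.56 on the log2 scale (SE 0.17, adjusted p = 0.0661), an inverse fold of 1.47. It passed in 3 of the 18 fits that left out 1 rat, with adjusted p down to 0.0314. These were the fits without NASH rat 1, without NASH-CH rat 2 and without NASH-CH rat 6. Without NASH rat 2 it was -0.45 (adjusted p = 0.133). Against control it was 0.30 in NASH (SE 0.16, adjusted p = 0.289) and -0.26 in NASH-CH (SE 0.16, adjusted p = 0.292), where library size only gave 0.0015. The catalytic subunit gene Gclc differed by -0.28 between NASH-CH and NASH (95% confidence interval -0.65 to 0.094). Whether the subunits differed from each other was not tested.

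Txnrd1 (ENSRNOG00000009088) encodes cytosolic thioredoxin reductase, a selenoprotein that regenerates thioredoxin with NADPH. It ran from 49.1 to 69.6 CPM in control rats (median 57.4), from 56.9 to 102 in NASH rats (median 72.7) and from 57.3 to 96.3 in NASH-CH rats (median 66.0). NASH rats 2, 3 and 4 lay above every control rat. The log2 fold change was 0.35 in NASH (SE 0.14, adjusted p = 0.155) and 0.28 in NASH-CH (SE 0.15, adjusted p = 0.204). Between the models it was -0.076 (95% confidence interval -0.39 to 0.24).

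Srxn1 (ENSRNOG00000031167) encodes sulfiredoxin, which repairs overoxidized peroxiredoxins. It had the largest log2 fold change of the 9 genes in NASH and rested on the fewest counts, 6 to 132 per rat. It ran from 0.298 to 2.12 CPM in control rats (median 0.901), from 0.916 to 4.76 in NASH rats (median 2.32) and from 0.961 to 2.41 in NASH-CH rats (median 1.61). NASH rats 2, 3 and 4 lay above every control rat, and control rat 2 lay above 3 of the 6 NASH rats. NASH rats stood 1.21 above controls on the log2 scale (SE 0.47, adjusted p = 0.148), a 2.32-fold difference with a 95% confidence interval of 1.16 to 4.61. It ran from 0.94 without control rat 5 to 1.5 without control rat 2. In NASH-CH it was 0.83 (SE 0.45, adjusted p = 0.221), and 0.55 without control rat 5.

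Akr7a3 (ENSRNOG00000017899) encodes the aldo-keto reductase known as aflatoxin aldehyde reductase, which reduces the dialdehyde of aflatoxin B1 in rat liver. It ran from 15.7 to 45.6 CPM in control rats (median 27.5), from 27.4 to 69.7 in NASH rats (median 49.8) and from 28 to 47.2 in NASH-CH rats (median 37.7). NASH rats 2, 3 and 4 lay above every control rat, and the other 3 lay within the control range. The log2 fold change was 0.71 in NASH (SE 0.26, adjusted p = 0.124), a 1.64-fold difference, and 0.42 in NASH-CH (SE 0.27, adjusted p = 0.293), where it was 0.25 without control rat 3. Its relative Akr7a2, whose reads the counting could share with it, stood at -0.21 in NASH (adjusted p = 0.497) and at -0.44 in NASH-CH (adjusted p = 0.0761).

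**Figure D2:**
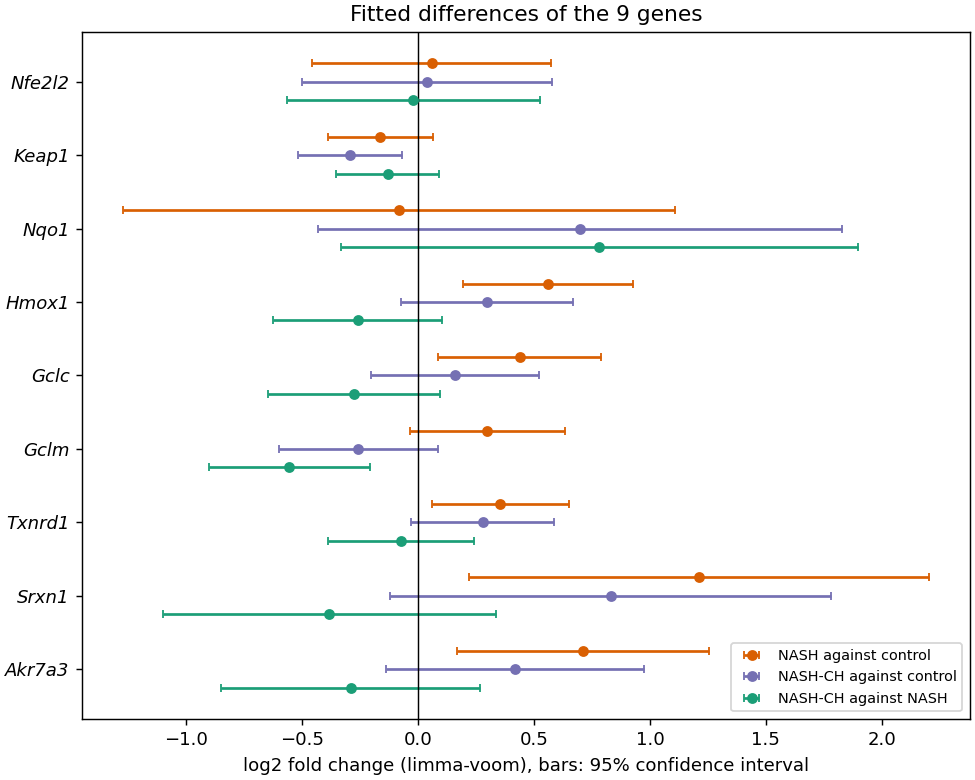
Fitted log2 fold change (x axis) of each of the 9 genes (y axis) in NASH against control, NASH-CH against control and NASH-CH against NASH, with bars for the 95% confidence interval of limma-voom. The intervals of Hmox1, Gclc, Txnrd1, Srxn1 and Akr7a3 in NASH, Keap1 in NASH-CH and Gclm between the models do not reach 0 before adjustment, and the interval of Nqo1 in NASH is the widest, from -1.27 to 1.11.

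The higher target levels in NASH were spread unevenly over the rats. NASH rat 2 was the highest of its group for 9 of the 9 genes, Keap1 included. Of the 7 targets, 6 lay above every control rat in NASH rats 2 and 3, and 5 in NASH rat 4. In the other NASH rats the number was 1 (rat 1), 0 (rat 5) and 2 (rat 6). The share of all tested genes above every control rat in each single rat is not given here. Whether these counts exceed that share was not tested. NASH rat 4 combined these with the lowest Nqo1 of the group, 3.10 CPM, below every control rat. Without NASH rat 2 the NASH fold changes of Gclc, Gclm and Txnrd1 were 0.31, 0.19 and 0.26.

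In NASH-CH rats, 1 to 3 of the 7 targets lay above every control rat, and no rat exceeded the controls in more than 3. These counts too have no share over all tested genes beside them. NASH-CH rat 6 was the highest of its group for 4 genes. Among control rats, rat 2 was the highest of its group for 6 of the 9 genes.

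**Figure D3:**
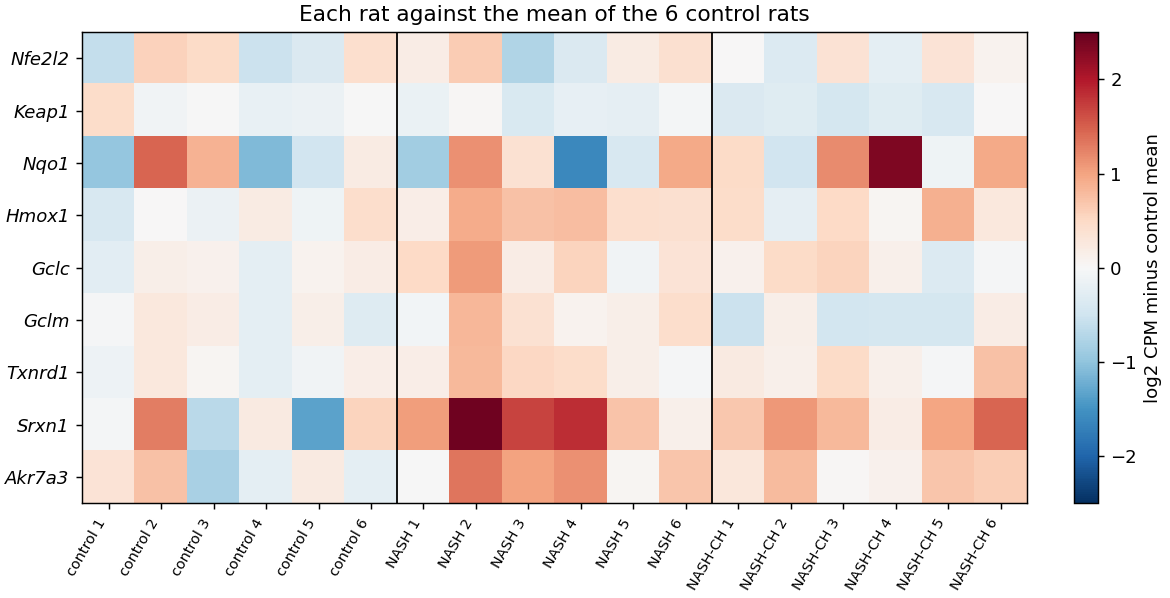
Level of each of the 9 genes (rows) in each of the 18 rats (columns) as log2 CPM minus the mean of the 6 control rats, on a colour scale from -2.5 (blue) to 2.5 (red). NASH rats 2, 3 and 4 are red for 6 or 7 of the 7 targets. So are NASH rat 6 and NASH-CH rats 1, 3, 4 and 6, some of them only faintly. Control rat 2 is also mostly red, and Nqo1 and Srxn1 vary most.

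How far the 9 genes went together from rat to rat was compared within groups. Log2 CPM was centred on each group mean and compared for 36 pairs over 18 rats. The median Pearson r was 0.25, 32 of the 36 were above 0, and the range was -0.33 to 0.68. By a permutation test of rats within groups, 4 pairs had an unadjusted p under 0.05 by r and 5 by Spearman's rho, and 0 passed adjustment over the 36 pairs. The closest pair was the thioredoxin branch, Txnrd1 and Srxn1 (r = 0.68, permutation p = 0.00202, adjusted p = 0.0727, and rho = 0.63, permutation p = 0.00935, adjusted p = 0.207). Without NASH rat 2 and NASH-CH rat 6, r was 0.58. For Nfe2l2 and Nqo1, r was 0.52 (permutation p = 0.0424, adjusted p = 0.382) and rho 0.59 (permutation p = 0.0179, adjusted p = 0.207). The pair had r = 0.95 within controls, 0.43 within NASH and -0.064 within NASH-CH.

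For each target, the genes with the most similar pattern were searched among 7272 or 7273 genes with a mean of at least 5 CPM, so these are maxima of a large search. The 3 nearest to Srxn1 by group-centred r over 18 rats were Ktn1 (0.88), Hmgxb3 (0.87) and Supt6h (0.83), and those nearest to Txnrd1 were Gripap1 (0.84), Arhgap32 (0.82) and Sik2 (0.79). RT1-CE10 (0.82), Rufy3 (0.75) and Tom1l1 (0.72) were nearest to Nqo1, and Fmr1 (0.80), Fgl2 (0.79) and Smarca5 (0.79) to Hmox1. Slc6a13 (0.82), Ipo13 (0.78) and Rnf152 (0.78) were nearest to Gclc, Adarb1 (0.76), Rusc2 (0.71) and Entpd5 (0.69) to Gclm, and Cltc (0.72), Vps18 (0.71) and Stk10 (0.69) to Akr7a3. The points share their libraries and depth, and 1 of these 21 genes, Entpd5, is in the list of other Nrf2 targets.

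A list of other Nrf2 targets held 23 tested genes and is not complete. Me1, Tkt, Taldo1, Txn1 and Prdx1 were counted only in the NADPH and thioredoxin lists below. By limma-voom 1 of the 23 genes rose and 0 fell in NASH, where 3.12% of all genes passed. In NASH-CH 5 of them rose and 1 fell, where 17.0% passed. In NASH edgeR gave 3 higher and 0 lower genes and DESeq2 4 and 1, and without control rat 3 limma-voom gave 0 higher. The 5 higher genes in NASH-CH became 3 with quality weights, 9 with library size only and 2 to 7 with 1 rat left out, the 2 without control rat 3. The group's median log2 fold change was -0.0028 in NASH and 0.23 in NASH-CH. Aldehyde oxidase Aox1 rose in both models. It ran from 269 to 431 CPM in control rats (median 347), from 410 to 591 in NASH rats (median 499) and from 513 to 711 in NASH-CH rats (median 576). Its log2 fold changes were 0.55 in NASH (SE 0.12, adjusted p = 0.0235) and 0.79 in NASH-CH (SE 0.13, adjusted p = 0.000424), where every NASH-CH rat lay above every control rat. The NASH call was lost in 3 of the 18 fits that left out 1 rat, with an adjusted p of 0.0696 without NASH rat 3.

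Ephx1, microsomal epoxide hydrolase, also separated NASH-CH from control rats completely. It ran from 337 to 539 CPM in control and from 583 to 2110 in NASH-CH rats, with a log2 fold change in NASH-CH of 1.31 (SE 0.26, adjusted p = 0.00263), and it was 0.71 in NASH (adjusted p = 0.113). Glutathione S-transferase Gstp1, a marker of altered rat hepatocytes, rose by 0.49 in NASH-CH against control (adjusted p = 0.0210) and by 0.49 against NASH (adjusted p = 0.0457). Its calls were lost in 2 and 15 of the 18 fits that left out 1 rat, with adjusted p up to 0.0568 without control rat 3 and 0.105 without NASH rat 3. Biliverdin reductase B, Blvrb, fell by 0.38 in NASH-CH (adjusted p = 0.0164). The export pump Abcc3 (2.95, adjusted p = 0.0455) and Pir (0.90, adjusted p = 0.0356) rose in NASH-CH and are named after their values were seen.

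Several of these genes also answer to phenobarbital through the receptor CAR, among them Ephx1 and Abcc3. Of 9 tested genes of phenobarbital and dioxin receptors, 1 rose and 1 fell in NASH-CH and 0 passed in NASH (4 at an unadjusted p under 0.05 by limma-voom, 0 at the adjusted threshold by edgeR and 2 by DESeq2). The share of all tested genes that passed by limma-voom was 17.0% in NASH-CH and 3.12% in NASH, and 21.5% had an unadjusted p under 0.05 in NASH. Cyp2b2, the classic phenobarbital-induced cytochrome, rose from a median of 36 CPM in control rats to 1004 in NASH-CH rats (log2 fold change 4.96, SE 1.20, adjusted p = 0.00946), and its near-identical relatives make its counts uncertain. In NASH rats it ran from 5.99 to 1105 CPM, with the median at 56.6, and the highest was NASH rat 2. That rat was also the highest NASH rat for Ephx1 (1381 CPM), for Abcc3 (34.2 CPM) and for each of the 9 Nrf2 genes. The CAR gene Nr1i3 fell in NASH-CH, by 0.87 against control (adjusted p = 0.0289) and by 1.51 against NASH (adjusted p = 0.000901). The call against control was lost in 5 of the 18 fits that left out 1 rat, with an adjusted p of 0.0675 without control rat 1, and with library size only, thinned libraries or the 2 groups alone. The part of phenobarbital in the Nrf2 target values was not tested.

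Partners and regulators of Nrf2 gave 0 calls of 14 in each of the 3 comparisons by limma-voom, edgeR and DESeq2, with 3, 2 and 0 at an unadjusted p under 0.05 by limma-voom. Of all tested genes, 3.12%, 17.0% and 4.20% passed by limma-voom, and 21.5%, 31.7% and 17.5% had an unadjusted p under 0.05. The genes of Cul3, the scaffold of the ligase that degrades Nrf2, and of Sqstm1 (p62), which draws Keap1 away, are named as core parts of the pathway. Their log2 fold changes were 0.077 (adjusted p = 0.591) and -0.098 (adjusted p = 0.774) in NASH, and -0.0072 and -0.064 in NASH-CH. The heme-sensitive repressor of Hmox1, Bach1, stood at 0.77 in NASH (adjusted p = 0.154), and the small Maf gene Maff at 1.64 (adjusted p = 0.254), with control rats from 1.09 to 89.4 CPM. Both are named after their values were seen.

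**Figure D4:**
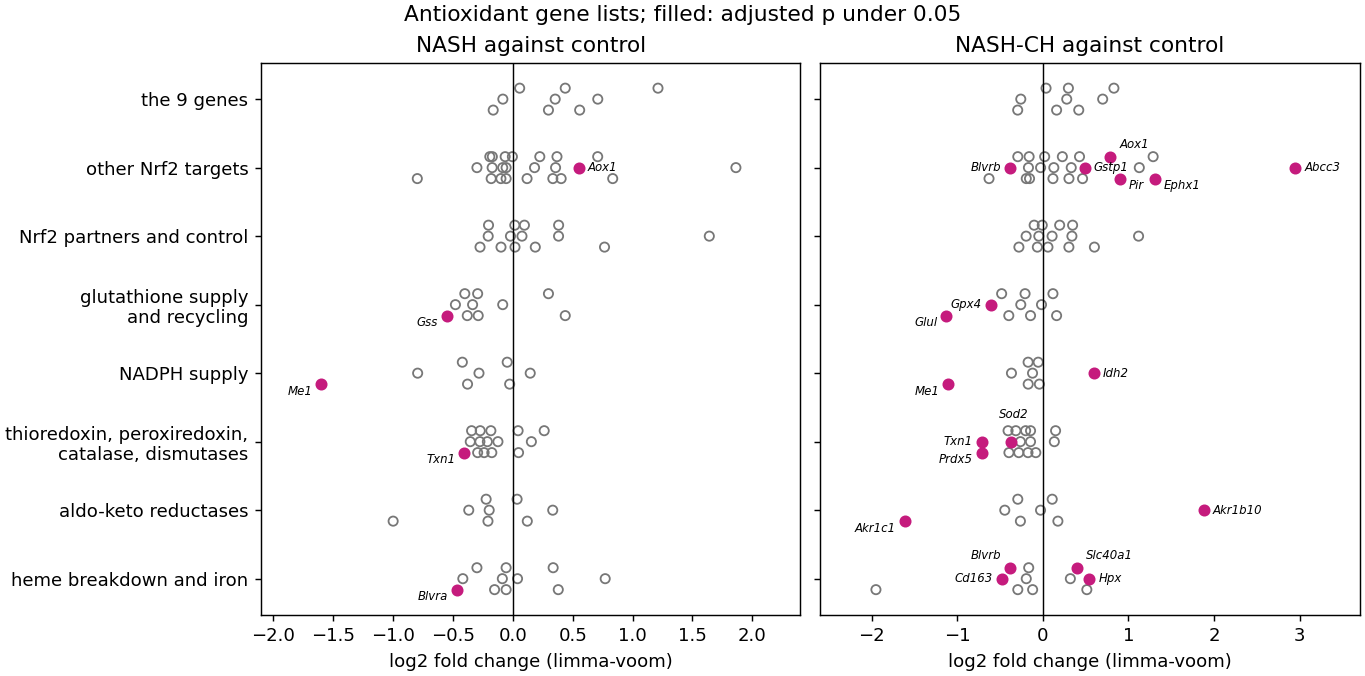
Fitted log2 fold change (x axis) of the tested genes of 8 groups (y axis) in NASH against control (left) and NASH-CH against control (right), with 1 circle per gene, spread vertically for legibility, and filled, named circles for an adjusted p under 0.05. The 9 genes hold no filled circle, the other Nrf2 targets have 1 in NASH and 6 in NASH-CH, and filled circles of the glutathione and thioredoxin groups lie below 0. Among all tested genes 3.12% passed in NASH and 17.0% in NASH-CH.

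Enzymes that feed or use the products of these targets are grouped by pathway. Among all tested genes, 1.58% rose and 1.54% fell in NASH, and 8.38% rose and 8.60% fell in NASH-CH. Whether the counts of a group differ from these shares was not tested. In the glutathione group of 10 tested genes, which includes Gclc and Gclm, 0 rose and 1 fell in NASH, and 0 rose and 2 fell in NASH-CH. Glutathione synthetase Gss, which acts after glutamate-cysteine ligase, fell by 0.55 in NASH (SE 0.14, adjusted p = 0.0346). It ran from 21.2 to 34.7 CPM in control, from 15.6 to 24.8 in NASH and from 25.5 to 38.1 in NASH-CH rats, and between the models it rose by 0.53 (adjusted p = 0.0341). Those calls were lost in 8 and 6 of the 18 fits that left out 1 rat, with adjusted p up to 0.0902 without NASH rat 3 and 0.0883 without NASH rat 5. In NASH-CH the peroxidase of lipid hydroperoxides Gpx4 fell by 0.61 (adjusted p = 0.00263) and glutamine synthetase Glul, which uses up glutamate, fell by 1.13 (adjusted p = 0.000655).

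NADPH supplies the reducing power of Nqo1 and Txnrd1. Of 8 tested genes of its supply, 0 rose and 1 fell in NASH, and 1 rose and 1 fell in NASH-CH. Among all tested genes 3.12% passed in NASH and 17.0% in NASH-CH. Malic enzyme Me1, also a lipogenic gene, ran from 10.1 to 42.4 CPM in control, from 5.10 to 13.5 in NASH and from 8.67 to 19.4 in NASH-CH rats. It fell by 1.60 in NASH (SE 0.31, adjusted p = 0.0110) and by 1.10 in NASH-CH (SE 0.29, adjusted p = 0.0140). Mitochondrial Idh2 rose by 0.59 in NASH-CH (adjusted p = 0.0172). Me1 is a known Nrf2 target too, and its direction was opposite to that of Aox1.

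Of 15 tested genes of thioredoxins, peroxiredoxins, catalase and dismutases, 0 rose and 1 fell in NASH, and 0 rose and 3 fell in NASH-CH. Among all tested genes 1.54% fell in NASH and 8.60% in NASH-CH. Thioredoxin Txn1, the substrate of the Txnrd1 enzyme, ran from 21.2 to 35.0 CPM in control, from 17.9 to 20.5 in NASH and from 14.2 to 17 in NASH-CH rats, so the 3 groups did not overlap. It fell by 0.40 in NASH (SE 0.10, adjusted p = 0.0354) and by 0.71 in NASH-CH (SE 0.10, adjusted p = 9.3e-05). The NASH call was lost in 8 of the 18 fits that left out 1 rat, with an adjusted p of 0.0920 without NASH rat 3, and with library size only, no filter on low counts or the 2 groups alone. Prdx5 fell by 0.71 in NASH-CH (adjusted p = 0.000198) and by 0.44 between the models (adjusted p = 0.0248), and the second call was lost without NASH rat 1 (adjusted p = 0.0532). Sod2, the mitochondrial superoxide dismutase, fell by 0.37 in NASH-CH (adjusted p = 0.0393), a call lost in 9 of the 18 fits that left out 1 rat, with an adjusted p of 0.0848 without control rat 5.

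In heme breakdown and iron handling, downstream of Hmox1, 0 of 11 tested genes rose and 1 fell in NASH, and 2 rose and 2 fell in NASH-CH. Among all tested genes 3.12% passed in NASH and 17.0% in NASH-CH. Biliverdin reductase A, Blvra, which turns the biliverdin made by heme oxygenase into bilirubin, fell by 0.46 in NASH (adjusted p = 0.0407), a call lost in 11 of the 18 fits that left out 1 rat, with an adjusted p of 0.0998 without control rat 1. In NASH-CH the heme-binding plasma protein gene Hpx rose by 0.54 (adjusted p = 0.0341) and the iron exporter gene Slc40a1 by 0.40 (adjusted p = 0.0421). These calls were lost in 5 and 10 of the 18 fits, with adjusted p up to 0.0868 without control rat 3 and 0.103 without control rat 1.

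Among aldo-keto reductases other than Akr7a3, 0 of 8 tested genes passed in NASH (2 at an unadjusted p under 0.05 by limma-voom, 0 at the adjusted threshold by edgeR and 2 by DESeq2). The share of all tested genes that passed by limma-voom was 3.12% in NASH and 17.0% in NASH-CH, and 21.5% had an unadjusted p under 0.05 in NASH. In NASH-CH Akr1b10 rose, from 0.202 to 1.93 CPM in control rats to 2.11 to 4.38 CPM in NASH-CH rats (log2 fold change 1.88, SE 0.41, adjusted p = 0.00438), and Akr1c1 fell by 1.61 (adjusted p = 0.00843). Both belong to families of close copies between which reads could be split.

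Markers of other liver cells moved with the groups as well. In NASH, where 3.12% of all tested genes passed, 1 of 10 hepatocyte markers (Apoa1) and 1 of 9 stellate cell markers (Lrat) fell by limma-voom. Both calls were lost with library size only, and that of Lrat in 5 of the 18 fits that left out 1 rat, with an adjusted p of 0.0629 without control rat 3. DESeq2 gave 1 higher and 2 lower markers in each of these lists. Cholangiocyte, endothelial, and neutrophil and lymphocyte markers had 0 calls of 6, 8 and 5 by limma-voom, edgeR and DESeq2, with 0, 2 and 0 at an unadjusted p under 0.05 by limma-voom. Of all tested genes, 21.5% had such a p in NASH. In NASH-CH, where 17.0% of all tested genes passed, 3 hepatocyte markers (Apoa1, Ttr and Alb) fell. Among stellate cell and myofibroblast markers Tagln, Des and Col1a1 rose and Lrat fell, and the endothelial marker Vwf rose. The summed level of the 9 stellate cell markers was 301 to 411 CPM in control, 280 to 377 in NASH and 316 to 471 in NASH-CH rats. That of 10 cholangiocyte markers was 12.6 to 17.6, 9.72 to 17.9 and 14.8 to 54.3 CPM. Their part in the values of the 9 genes was not tested.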

How the data were processed

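RNA from the livers of 18 Wistar rats was sequenced, with a TruSeq stranded mRNA kit per the labels. The labels name another RNA isolation kit than the methods. The authors trimmed adapters (Trim Galore), mapped reads to Rnor_6.0 by STAR in its 2-pass mode and estimated gene counts by RSEM on Ensembl release 95. They deposited expected counts per gene, not normalized. Tool versions are not given in the sources used here. Groups were taken from the labels.

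The deposited expected counts were rounded (2130 to 2522 values per table were not whole), scaled by TMM (edgeR 4.0.16), filtered with filterByExpr and fitted with limma-voom 3.58.1 in R 4.3.3, in 1 fit of all 18 rats. P-values were adjusted by the Benjamini-Hochberg method over 12904 genes in each comparison (threshold 0.05). Log2 CPM used a prior count of 2, and 100000 permutations were drawn for pairs of genes. The total per rat ran from 19498534 to 60117822 counts and gives counting error only. The smallest chi-square per degree of freedom between 2 rats of a group was 28.3, beyond sampling noise. Labels do not name cages or batches. The methods of the study give 2 rats per cage, and the fit treats all rats as independent. Each p-value sets a group difference against the spread between these rats.

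The 9 genes and all gene lists were chosen with earlier results of these data known. From each list at most 4 genes per comparison were named, those with the smallest adjusted p under 0.05, with exceptions stated. Of 169 list entries 162 were found by symbol; Akr1b8, Pgd, Hba-a1, Cyp2b1, Col1a2 and Pecam1 were not analysed here. Where a symbol had several rows (Slc40a1, Cbr1), that with most counts was used. A further gene is not reported here. As alternatives served DESeq2 1.42.0, the quasi-likelihood test of edgeR, other size factors and filters, thinned libraries, quality weights, a replicate block, the 2 groups alone, stricter thresholds, and leaving out each rat. The limma-voom fit with and without the block, edgeR and DESeq2 were tested on simulated data. Promoter letters came from RefSeq (GRCr8), another build than that of the counts, and the letter patterns were chosen after other results had been seen.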

Additional observations from a re-analysis of the deposited data

Results flagged for a closer look

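In 3 of the 27 sets of 6 rats (9 genes in 3 groups), a single rat lay far from the others by Dixon's criterion, whose critical value for 6 samples is 0.625. For normally distributed values chance flags about 1 in 20 such sets. The criterion was applied to CPM rather than log2 CPM, and whether CPM follow that distribution was not tested. Keap1 was at 29.8 CPM in control rat 1, where the other controls ran from 18.9 to 21.6 CPM. Keap1 was at 21.8 CPM in NASH-CH rat 6, where the others ran from 16 to 17.6 CPM. Nqo1 was at 48.5 CPM in NASH-CH rat 4, where the others ran from 6.92 to 21.8 CPM. As log2 CPM this rat was at 5.60 and the others ran from 2.80 to 4.45, which the criterion would not flag. Both Keap1 rats would still be flagged as log2 CPM. The Keap1 log2 fold change in NASH-CH against control was -0.21 without control rat 1 (adjusted p = 0.129) and -0.35 without NASH-CH rat 6 (adjusted p = 0.0300). That of Nqo1 was 0.38 without NASH-CH rat 4 (adjusted p = 0.646).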

How the results depend on the processing

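For the 9 genes, 248 of 267 fold changes under other settings and 459 of 486 with 1 rat left out kept their direction and their side of the threshold. From 0 genes, the number that passed in NASH was 2 with DESeq2, 2 with library size only (Hmox1 and Gclc) and 1 with quality weights. In NASH-CH against control it was 1 each with DESeq2, library size only (Txnrd1) and thinned libraries. Between the models it was 1 each with DESeq2, no filter on low counts and the replicate block (Gclm each time). With 1 rat left out it was 0 to 1 in each comparison. With library size only, all genes had a median log2 difference of 0.23 for NASH and 0.27 for NASH-CH, and this scaling reversed Keap1 (0.060) and Nqo1 (0.17) in NASH, Gclm in NASH-CH (0.0015) and Nfe2l2 between the models (0.020). Nqo1 in NASH also reversed with quality weights (0.022), and Nfe2l2 in NASH-CH with edgeR (-0.026), DESeq2 (-0.032) and quality weights (-0.041). With 1 rat left out, signs turned for Nfe2l2 in NASH (-0.069 to 0.22), NASH-CH (-0.097 to 0.15) and between the models (-0.18 to 0.097), for Nqo1 in NASH (-0.32 to 0.23) and for Txnrd1 between the models (-0.17 to 0.019). The cause was not tested.

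Replicate numbers of the labels did not pair the rats: same-numbered rats had mean correlations of 0.052, 0.073 and 0.015 in the 3 comparisons, and 2, 1 and 0 of 6 pairs exceeded 0.1. Each comparison had 2 of 6 rats nearest to their own number. The replicate block gave 444, 2095 and 540 genes in all, against 403, 2192 and 542. Among named list genes, Txn1 in NASH, Slc40a1 and Sod2 in NASH-CH, and Gstp1, Col3a1 and Prdx5 between the models no longer passed with it.

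Counts over all genes moved by over 1.5 times from 403 in NASH to 652 with edgeR, 1228 with DESeq2, 865 with library size only, 268 without a filter, 1509 with quality weights, 644 with the 2 groups alone, 39 at an adjusted p of 0.01, 117 at a log2 fold change of 1, and 128 to 982 with 1 rat left out (control rats 3 and 6). From 2192 in NASH-CH they moved to 5495 without a filter, 1408 with the 2 groups alone, and 849 and 685 at the stricter thresholds. From 542 between the models they moved to 949 with DESeq2, 2649 without a filter, 349 with the 2 groups alone, 239 and 320 at the stricter thresholds, and 346 without NASH rat 3. For 47 named fold changes of the lists, 173 of 1314 values no longer passed and 0 reversed. Srxn1 had the fewest counts of the 9 genes, and 6 rats per group limit each comparison.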
